A study of Bos taurus with 18 samples.

Results

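Of the 12326 Ensembl-annotated features that reached a mean of 1 CPM in cattle leukocytes, 32 were higher in every one of the 6 Droughtmaster libraries than in any of the 12 F1 and Red Angus libraries. That is 0.26% of these features. CPM values are counts relative to library size, scaled by TMM factors, a correction for differences in library composition. A further clause of the rule, which removes features that are extreme in Droughtmaster replicate 3, removed 0 features. The measured values themselves chose the 32 genes, so their height in Droughtmaster is described here and not tested. They are called members and numbered 1 to 32 by their separation, the log2 ratio of the lowest Droughtmaster CPM to the highest CPM of the other libraries, each plus 0.5. The deposited files give no gene names, and of the 27607 Ensembl identifiers 0 were found in the available RefSeq gene table (of ARS-UCD2.0). Member 1 is ENSBTAG00000054574 and member 2 is ENSBTAG00000051191, and the others are called by number. No role is given to any of them.

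The groups were 6 Droughtmaster cattle, 6 F1 hybrids of Red Angus and Droughtmaster, and 6 Red Angus cattle. All 18 animals were female and carried the label heat stress, so nothing here separates stressed from unstressed animals. The labels give no age, parentage, direction of cross or collection date, and replicate numbers follow the order of deposition and pair no animals. Each library was made from leukocytes of the tail vein blood of a separately named animal.

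Droughtmaster is a tropical beef breed of mixed zebu (Bos indicus) and taurine (Bos taurus) descent, and Red Angus is a taurine beef breed of temperate origin. An F1 animal carries a chromosome set of each parental breed. Where a breed difference in expression is encoded next to the gene itself, each chromosome copy tends to keep its own level and the hybrid tends to lie between its parents. Where the hybrid resembles a single parent, the pattern is called dominance of that parent's level. The leukocyte layer of blood holds neutrophils, lymphocytes, monocytes and rarer cells in proportions that vary between animals. In such bulk samples, more cells of a type and more RNA of a gene per cell cannot be told apart. The labelled cell type could not be checked against marker genes, because the identifiers have no names here.

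Libraries held 11639027 to 18551945 counts in Droughtmaster, 14778379 to 21889675 in F1 and 16459262 to 24117615 in Red Angus animals. Droughtmaster replicate 3 stood apart in composition. A single feature that is no member took 44.6% of its counts, and in each of the other 17 libraries the most abundant feature took at most 4.03%. Its TMM factor was 0.424, against 0.734 to 1.46 in the other libraries, so its CPM values depend on that correction more than those of any other library.

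The separation was complete by construction but narrow. The lowest Droughtmaster value was between 1.00 and 1.66 times the highest value of the other breeds, with a median of 1.14. It was at least 1.5 times that value in 1 member and under 1.1 times in 12. Differences between breed means were larger. Mean CPM in Droughtmaster was a median of 3.83 times the Red Angus mean (range 1.73 to 20.4) and a median of 3.59 times the F1 mean (range 1.63 to 33.0). Against Red Angus, 29 of the 32 members were at least 2-fold higher by their means and 13 at least 4-fold, and against the F1 the numbers were 29 and 11. Both parental and hybrid comparisons share the Droughtmaster libraries. No p-value is attached to these differences, because the rule selected on them.

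**Figure D1:**
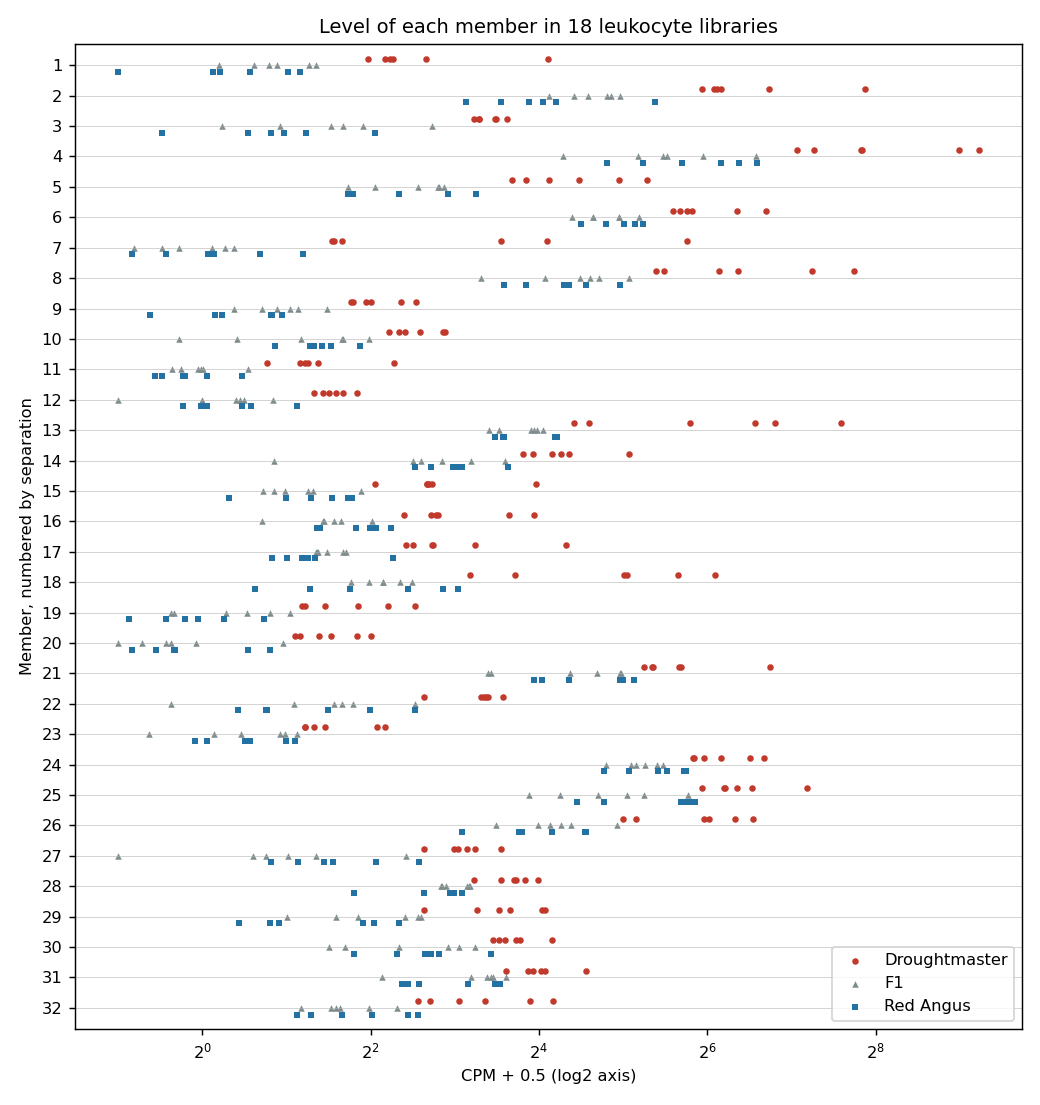
CPM plus 0.5 (log2 axis) of each of the 32 members in each library, 1 point per animal, with Droughtmaster (circles) drawn above F1 (triangles) and Red Angus (squares) in each row. In each row all 6 Droughtmaster points lie to the right of the other 12, by a gap that narrows from a separation of 0.61 at member 1 to 0.00 at member 32.

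Member 1 had the widest separation, 0.61 on the log2 scale. It measured 3.40 CPM at the lowest, 4.24 at the median and 16.7 at the highest in Droughtmaster libraries. In the F1 the same 3 values were 0.651, 1.29 and 2.05 CPM, and in Red Angus 0, 0.818 and 1.74 CPM. Droughtmaster replicate 3 alone held the value of 16.7, and the next Droughtmaster library was at 5.81.

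Member 2 was carried by far more reads. Its Droughtmaster libraries ran from 60.6 CPM over a median of 70.0 to 235 CPM. F1 libraries lay at 16.9, 25.4 and 30.8 CPM (lowest, median and highest), and Red Angus libraries at 8.30, 15.1 and 41.0 CPM. A single Red Angus library, replicate 5, stood closest below Droughtmaster, and Droughtmaster replicate 6 was the high one.

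Member 3 had the most even Droughtmaster values of the 32. They spanned 8.84 to 11.8 CPM around a median of 9.97, a highest-to-lowest ratio of 1.33. The lowest value came from 63 counts in Droughtmaster replicate 3, so the evenness depends on that library's TMM factor of 0.424. With library totals alone, member 3 did not meet the rule. F1 libraries measured 0.676, 2.53 and 6.13 CPM at the lowest, median and highest, and Red Angus libraries 0.218, 1.36 and 3.63. Means of member 3 were 10.1 ± 1.14 CPM for Droughtmaster, 2.75 ± 1.89 for F1 and 1.56 ± 1.15 for Red Angus animals (SD, n = 6 each). The breeds with lower levels were thus the ones with the larger relative spread.

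Member 4 had the highest CPM of the set in Droughtmaster, at 133, 228 and 601 CPM (lowest, median and highest). The F1 lay at 19.0, 44.7 and 95.4 CPM, and Red Angus at 27.6, 61.5 and 95.8 CPM. The upper ends of the F1 and of Red Angus nearly coincided, below the lowest Droughtmaster animal. Among members 5, 6 and 8, the F1 mean was below the Red Angus mean in members 5 and 6 and above it in member 8. Their Droughtmaster means were the highest, which the rule makes certain for every member. Droughtmaster averaged 22.3 ± 10.3, 65.4 ± 22.01 and 100.4 ± 68.3 CPM for them in that order, F1 averaged 5.28 ± 1.68, 27.7 ± 5.64 and 21.7 ± 8.11, and Red Angus averaged 5.57 ± 2.52, 31.7 ± 5.97 and 19.7 ± 6.83 (SD, n = 6 each).

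Member 7 had the largest ratio of breed means, 20.4 over Red Angus and 33.0 over the F1, and also the widest range within Droughtmaster. Droughtmaster replicate 2 measured 53.6 CPM, replicates 6 and 5 measured 16.5 and 11.2, and the other 3 measured 2.40 to 2.67 CPM. F1 libraries were at 0.0676 to 0.796 CPM and Red Angus libraries at 0.0599 to 1.79 CPM. Its large ratio of means thus came from 3 of 6 Droughtmaster animals, while the lowest 3 lay close above the highest Red Angus animal.

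Members differed in how evenly the Droughtmaster animals shared the higher level. The highest-to-lowest ratio among Droughtmaster libraries was under 2 in 10 members, from 2 to under 4 in 14 and at least 4 in 8, with a median of 2.84. These ratios include replicate 3, whose values depend most on the TMM correction. The even ones included member 9, at 2.90 to 5.32 CPM in Droughtmaster libraries against 0.796 to 2.30 in F1 and 0.148 to 1.42 in Red Angus libraries. Member 12 was even as well, at 2.02 to 3.09 CPM in Droughtmaster libraries, 0 to 1.28 in F1 and 0.350 to 1.68 in Red Angus libraries. At the uneven end, member 13 spanned 20.8 to 192 CPM in Droughtmaster, and only 10.1 to 16.1 in F1 libraries and 10.7 to 18.05 in Red Angus. Member 18 spanned 8.55 to 67.6 CPM in Droughtmaster, against 2.89 to 5.10 in F1 libraries and 1.04 to 7.69 in Red Angus. For member 13 the spread was thus on the Droughtmaster side, whereas the Red Angus libraries of member 18 also differed several-fold among themselves.

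Across the set, the spread within a breed was close to that of all features in Droughtmaster and F1 and lower in Red Angus. The median SD of log2(CPM + 0.5) over members was 0.52 for Droughtmaster, 0.51 for F1 and 0.55 for Red Angus libraries, against 0.53, 0.49 and 0.66 over all 12326 features. A rule that demands separation favours genes of low spread, so the lower Red Angus value is a description.

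The same Droughtmaster animals tended to be high or low from member to member. Replicates 1 and 4 held the lowest Droughtmaster value in 13 and 12 members, together 25 of 32, and in 16 members they were the lowest pair. Replicates 2 and 6 held the highest value in 13 and 12 members and were the highest pair in 14. The median deviation from the Droughtmaster mean over members was -0.35 and -0.34 (log2) in replicates 1 and 4, and 0.32 and 0.42 in replicates 2 and 6. These are values the rule used, and TMM scaling centres each library on the bulk of genes, so they do not show the shift to be particular to the members. Total counts went with this pattern only in part. Replicates 1 and 4 held 15880828 and 18482095 counts, and replicates 2 and 6 held 11639027 and 15872635, so replicates 1 and 6 were nearly equal. Replicate 5 held the most, 18551945, with a median deviation of -0.11, and replicate 3 held 16854390, with 0.03. The part of depth in the pattern was not tested. Replicates 1 and 4 thus set the lower edge of most members.

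**Figure D2:**
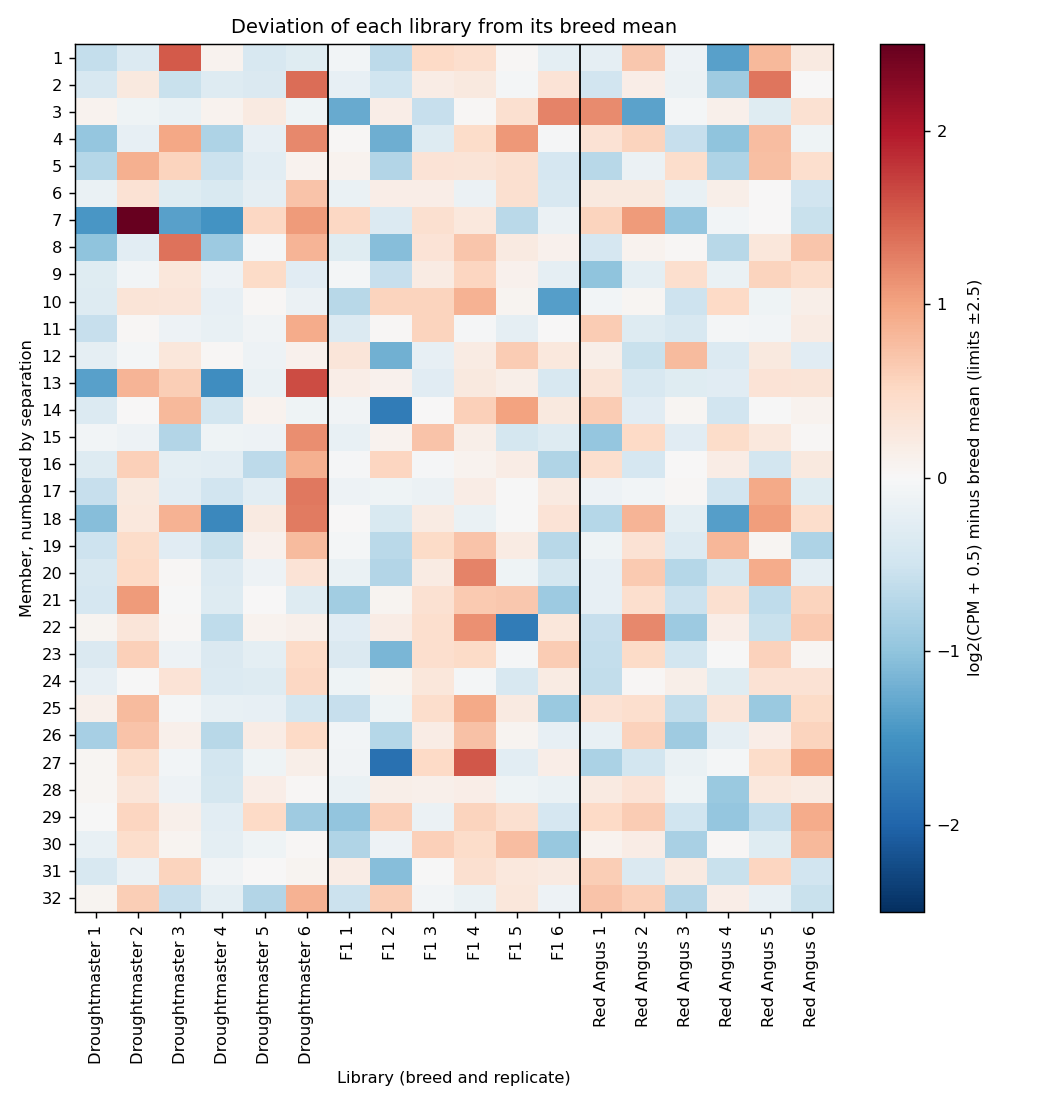
Deviation of each library from the mean of its own breed in log2(CPM + 0.5), for each member (rows) and library (columns, Droughtmaster, then F1, then Red Angus), with colours limited to ±2.5. The columns of Droughtmaster replicates 1 and 4 are above their breed mean in only 6 and 3 of 32 members, and those of replicates 2 and 6 in 23 and 24 of 32.

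On the other side of the gap, the closest library belonged to Red Angus in 18 members and to the F1 in 14. F1 replicate 4 was the closest in 8 members, Red Angus replicate 5 in 6 and Red Angus replicate 6 in 5. F1 replicate 4 lay above its breed mean in 27 of 32 members, with a median deviation of 0.41 on the log2 scale. The remaining 13 cases were spread over 6 libraries. A count of 0 occurred in 1 library each of members 1, 12, 20 and 27.

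The members just inside the rule were separated by very little. Member 32 had 5.41 CPM both in its lowest Droughtmaster library and, by a difference beyond these digits, in its highest Red Angus library. Its means were 10.1 CPM for Droughtmaster, 2.86 for F1 and 3.36 for Red Angus animals. Members 31 and 30 had ratios of 1.00 and 1.01. The 3 features just outside had a lowest Droughtmaster value of 20.2, 16.1 and 28.9 CPM and a highest other value of 20.3, 16.2 and 29.1 CPM. Their Droughtmaster means were also the highest of the 3 breeds, for example 61.1 CPM for Droughtmaster, 24.8 for F1 and 18.1 for Red Angus animals in the third.

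Counting error alone was wide relative to these gaps. For each member, exact 95% Poisson intervals were set around the lowest Droughtmaster value and the highest other value. They cover counting error only, and the rule chose the members by these same 2 values, so they do not test the separation. The 2 intervals were apart in 5 members (2, 4, 5, 6 and 8) and overlapped in 27. For member 4 the interval was 127 to 139 CPM in the lowest Droughtmaster library and 92.2 to 99.5 CPM in the highest other library, from 2111 and 2692 counts. For member 1 the intervals were 2.56 to 4.44 and 1.47 to 2.79 CPM, from 54 and 41 counts. The smallest count of any member in a Droughtmaster library was 13. Members had a median of 5.73 CPM over the 18 libraries, against 19.3 over all features, and 14 of them had a mean under 5 CPM.

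Fewer features set either of the other breeds apart. By the same criterion, without the clause on replicate 3, 2 features were higher in every F1 library than in any other library (0.0162%) and 1 in every Red Angus library (0.00811%). In the opposite direction, 49 features were lower in every Droughtmaster library than elsewhere (0.398%), and 0 features in every F1 or in every Red Angus library. Taken against a single breed, Droughtmaster lay wholly above Red Angus in 89 features (0.722%) and wholly above the F1 in 135 (1.1%). The F1 lay wholly above Red Angus in 3 features and wholly below it in 3. These counts were not tested against each other.

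The rule did not compare the hybrids with Red Angus, and no member passed the test of that difference. It did hold both groups below the lowest Droughtmaster library, so the members' values in this comparison are not independent of the rule. With edgeR's quasi-likelihood test over all 14446 features, 0 members and 0 features had a Benjamini-Hochberg adjusted p under 0.05 (0% called; smallest adjusted p = 1.00). Without adjustment, 0 of 32 members had p under 0.05, where 466 features (3.23%) did. The 2 shares were not compared by a test. Some members reached the mean of 1 CPM only through their Droughtmaster libraries. Member 11, for example, averaged 0.505 CPM in F1 and 0.424 in Red Angus animals. With only F1 and Red Angus libraries, 30 of the 32 members remained in the fit. DESeq2's Wald test called 0 members and 1 other feature (ENSBTAG00000014247, named after its value was seen; log2 fold change 4.34, DESeq2 adjusted p = 0.0448). The fitted log2 fold change of F1 minus Red Angus over members had a median of -0.09 (range -0.65 to 0.83), beside -0.05 over all features tested. It was negative in 18 members (56.2%, against 55.4% of all features) and positive in 14. The median standard error of a member was 0.40 on the log2 scale, so a difference of moderate size in a single member would not have been detected.

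**Figure D3:**
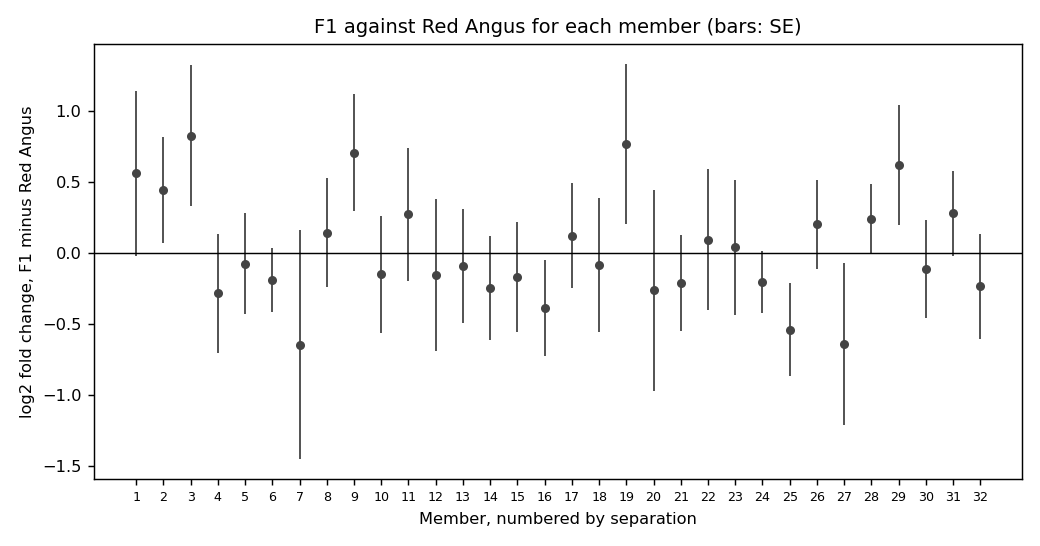
Fitted log2 fold change of F1 minus Red Angus for each member, with bars of 1 standard error. Points scatter on both sides of 0, 14 above and 18 below, between -0.65 and 0.83, and none passed the test.

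The member with the smallest p among those higher in the F1 was member 9. It averaged 1.48 ± 0.516 CPM in F1 and 0.897 ± 0.498 in Red Angus animals (SD, n = 6 each). Its log2 fold change was 0.70 ± 0.41 (SE; edgeR unadjusted p = 0.103, adjusted p = 1.00). Among those lower in the F1 it was member 25, at 30.4 ± 14.4 CPM in F1 and 44.2 ± 15.8 in Red Angus animals (SD, n = 6 each). Its log2 fold change was -0.54 ± 0.32 (SE; edgeR unadjusted p = 0.111, adjusted p = 1.00). For both members the ranges of the 2 breeds overlapped. F1 libraries of member 9 lay at 0.796 to 2.30 CPM and Red Angus libraries at 0.148 to 1.42, and for member 25 they lay at 14.3 to 54.0 and 21.4 to 57.4.

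The hybrids lay near the Red Angus level on the scale set by the parents. The fitted difference of F1 from Red Angus was divided by that of Droughtmaster from Red Angus, so that 0 stands for the Red Angus level and 1 for the Droughtmaster level. The median over members was -0.04 and the range -0.55 to 0.34. It was below 0 in 18 members, from 0 to under 0.25 in 8 and at least 0.5 in 0. The rule itself required every F1 library to lie below every Droughtmaster library, which keeps out genes whose hybrids approach Droughtmaster, so the low values are partly set by the choice of members. Member 9 had the highest value, 0.34, followed by member 3 at 0.31. Member 25 had the lowest, -0.55.

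Which genes met the rule depended on how the libraries were scaled. With the RLE factors of DESeq2 the rule found 37 features, 30 of the 32 members among them. With library totals alone it found 8, of which 3 (members 1, 8 and 14) were among the 32. In 25 of the 29 members lost, the lowest Droughtmaster library was then replicate 3, whose total holds the single feature named above. When the 38 features extreme in that library were taken out of the totals, 39 features met the rule, with 18 of the 32 members among them.

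The number of genes that met the rule changed when single animals were left out. Without Droughtmaster replicates 1, 4 and 3 the rule found 70, 67 and 51 features, and without Red Angus replicate 5 it found 57. Without each of the other 14 animals the number was 32 to 43. Fewer libraries make the rule easier to meet, so a rise follows from its construction. A gene separated over all libraries also stays separated when a library is removed, unless the scaling factors, the low-count filter or the mean CPM move it, so finding the members again is no sign of stability. Between 28 and 32 of the members were found each time, and 27 of the 32 were found in every one of the 18 settings. The 5 that were not were members 11, 20, 24, 28 and 31.

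**Figure D4:**
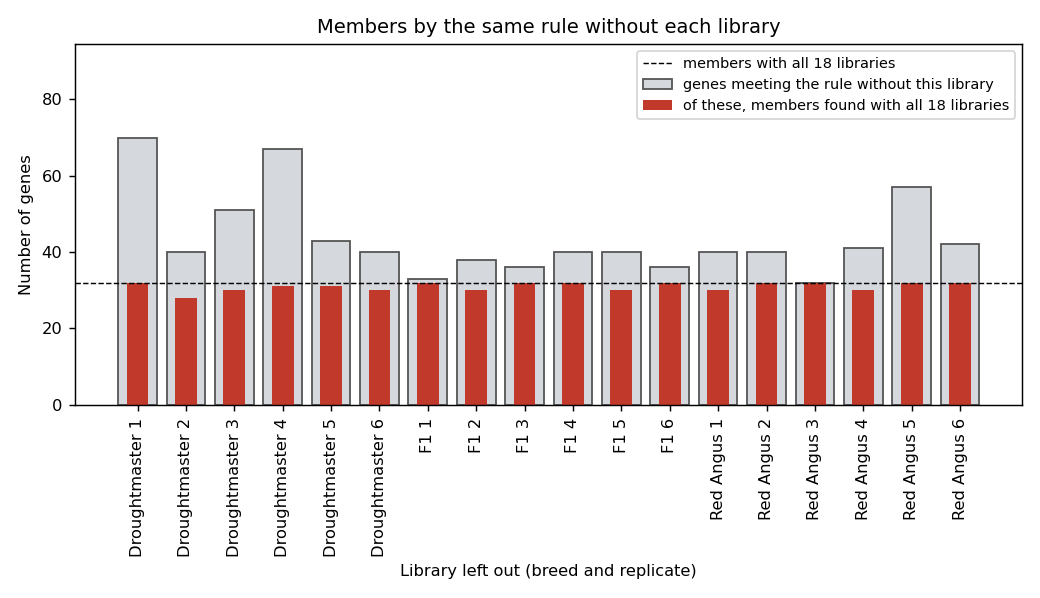
Number of features that met the rule after leaving out the library named on the x axis (wide bars) and the number of the 32 members among them (narrow bars), with a dashed line at 32. The tallest bars are those without Droughtmaster replicates 1 and 4 (70 and 67 features), and 28 to 32 members are found in each setting.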

How the data were processed

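Leukocyte mRNA libraries of 18 female cattle were analysed, 6 per breed. The authors deposited raw read counts per gene, as whole numbers. The submitters' processing notes name DESeq2 1.16.1, featureCounts 1.5.0-p3 and HISAT2 2.0.5 as tools and ARS-UCD1.2 as the build, and strandedness is not given in the sources used here. Whether reads of a gene and of one that overlaps it on the other strand were told apart is therefore not known. How reads shared by near-identical copies were counted is not given either. A second deposited table gives positions for loci without an Ensembl identifier. Its other columns, such as length in bases, were read but enter no test.

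Counts were filtered with filterByExpr by breed, which left 14446 features, scaled by TMM and fitted with edgeR 4.0.16 in R 4.3.3, all 18 libraries in 1 fit with 3 breed means (quasi-likelihood F test, robust, two-sided, Benjamini-Hochberg over all features, threshold 0.05). Standard errors were derived from the F statistic. DESeq2 1.42.0 was an alternative. The tests were tried on simulated data first. All pairs of libraries within a breed differed by more than sampling noise, with a chi-square of at least 65.5 per degree of freedom (features averaging 10 counts or more). Intervals cover counting error only.

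The members and lists were chosen with earlier results of these data known. The rule for named genes gives at most 2 identifiers where no symbols exist, namely the 2 of widest separation, and the other members are numbered. Of the 18 gene lists written down, blood cell markers and stress pathways among them, 0 genes could be matched, so none was tested. The tests of Droughtmaster against the other breeds had been planned for those lists alone and are not reported. Separately named animals are taken as separate samples.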

Additional observations from a re-analysis of the deposited data

Results flagged for a closer look

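Among the 96 sets of 6 libraries (32 members in 3 breeds), 7 had a library far from the other 5 on the log2 scale by Dixon's test of the gap to the nearest library. In independent sets that were not selected, chance would flag about 1 in 20. These sets hold values that the rule used and share the same libraries, so that rate need not apply. The flags are a description. Of the 7 sets, 4 were Droughtmaster, 1 was F1 and 2 were Red Angus. In Droughtmaster, replicate 3 measured 16.7 CPM for member 1, with the others at 3.40 to 5.81. Replicate 6 measured 15.1 CPM for member 15, with the others at 3.65 to 6.11. For member 21, replicate 2 measured 106.6 CPM and the others 37.6 to 50.9. Replicate 4 was the low one for member 22, at 5.72 CPM where the others had 9.40 to 11.4. In the F1, replicate 2 was low for member 31, at 3.91 CPM, with the others at 8.62 to 11.7. In Red Angus, replicate 5 measured 4.31 CPM for member 17, with the others at 1.28 to 2.04, and replicate 4 measured 2.99 CPM for member 28, with the others at 5.69 to 7.996.

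Outside the annotated genes, 6 loci without an Ensembl identifier met the same rule, out of 714 with a mean of at least 1 CPM (0.84%, against 0.26% of features with an identifier; the difference was not tested). Of the 6, 3 lie on chromosome 13 and the others on chromosomes 2, 4 and 18. On chromosome 13, the plus-strand locus at 78208837 to 78224080 and the minus-strand locus at 78087589 to 78090530 lie near each other. The 6 loci need therefore not be independent. The locus on chromosome 18 (63189939 to 63196970, plus strand, ARS-UCD1.2) averaged 23.2 CPM for Droughtmaster, 4.82 for F1 and 6.72 for Red Angus animals, with a lowest Droughtmaster value of 14.2 and a highest other value of 11.4 CPM. The locus on chromosome 2 (135194460 to 135197978, minus strand) averaged 3.59 CPM for Droughtmaster, 0.989 for F1 and 0.911 for Red Angus animals.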

How the results depend on the processing

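The count of 32 members became 8 with library totals as the only scaling, 18 with a mean of at least 5 CPM and 1 when the lowest Droughtmaster value had to be 1.5 times the highest other. It was 37 with RLE factors and 35 with no filter on low counts, and 32 with features extreme in 1 library kept. In settings chosen after seeing the data, it was 35 with TMM factors computed without the extreme features and 39 with totals without them. Leaving out each animal in turn gave 32 to 70. The 0 features called between F1 and Red Angus stayed 0 with RLE, with no filter, with only F1 and Red Angus libraries, at an adjusted p under 0.01 and without each animal (0 to 0), and became 1 by DESeq2's Wald test. Features with an edgeR unadjusted p under 0.05 varied more, from 466 of 14446 to 1532 of 14601 without Red Angus replicate 5 and 277 of 14668 without Red Angus replicate 4. Among members these were 2 without F1 replicate 4 and 2 without Red Angus replicate 5. They were 1 without F1 replicate 1, Red Angus replicate 1 or Red Angus replicate 4, and 0 in the other settings. The median F1 minus Red Angus of the members (-0.09, log2) was 0.02 with library totals and ran from -0.15 to 0.05 without each animal. It moved by less than the median standard error of a single member (0.40) in each setting tried. That is a wide measure for a median over 32 members, so it does not show the median to be stable. Its sign is not settled. Members 9 and 25 kept their direction in each setting. They were picked from these same data for the smallest p in each direction, and the settings share most libraries, so a kept direction is no sign of stability. No paired analysis was possible because the labels pair no animals. Alternatives for the tests of Droughtmaster against Red Angus and of F1 against Droughtmaster were not run, since those tests are not reported. Low counts limit the members with a mean under 5 CPM.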
